A study of Homo sapiens with 12 samples.

Results

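The genes of the integrin, laminin and collagen families were described in TE-1, an established human line from an oesophageal cancer. They were chosen by symbol from the table of protein-coding genes: integrin alpha and beta chains (ITGA, ITGB), laminin chains (LAMA, LAMB, LAMC) and numbered collagen chains (COL). The rule found 82 of 19771 genes, namely 18 integrin alpha chains, 8 integrin beta chains, 12 laminin chains and 44 collagen chains. RNA was sequenced from 12 libraries of total RNA, 3 in each of 4 groups, all made 48 h after transfection of cells grown in DMEM with serum. OE_IFI6 cells carried a vector that overexpresses IFI6, an interferon-induced gene, and OE_control cells carried its control vector. The sh_IFI6 cells carried an interference vector against IFI6, and sh_control cells carried the matching control. All groups were the same line, and none was left untransfected. The question was how a higher or lower level of IFI6 moves other genes.

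Values are FPKM (sequenced fragments, scaled by the length of the transcript and by how many fragments were mapped), so levels can be compared between genes. Changes are differences of log2(FPKM + 1), tested with limma across all genes averaging at least 1 FPKM over the 12 libraries. "Rose" and "fell" mark a Benjamini-Hochberg adjusted p under 0.05. Nothing in the labels ties replicates to separate cultures, so these p-values measure a spread that may be technical.

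Integrins are cell-surface receptors built from 1 alpha and 1 beta chain, and the pair decides which matrix protein is bound. Laminins are cross-shaped trimers of an alpha, a beta and a gamma chain, and they form the basement membrane together with the network of collagen IV. Fibrillar collagens build the interstitial matrix. In stratified epithelium such as the oesophageal lining, ITGA6 with ITGB4 and the transmembrane collagen COL17A1 anchor basal cells to a laminin that contains LAMA3 and LAMB3, while COL7A1 forms the anchoring fibrils beneath it.

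IFI6 was 308.7, 268.4 and 358.2 FPKM in the OE_IFI6 libraries, against 27.3, 17.9 and 28.8 FPKM in the OE_control libraries. It was 15.1, 13.9 and 14.7 FPKM in the sh_IFI6 libraries, against 24.9, 24.1 and 21.2 FPKM in the sh_control libraries. Principal components set the 3 OE_control libraries apart, with scores of 22.2 to 30.6 on the leading component (23.1% of the variance) against -11.3 to -5.9 in the other 9 libraries. The genes past the threshold against OE_control are therefore also given against sh_control. Of 14 squamous epithelial markers, 5 passed the filter. KRT8 averaged 965, 814, 1058 and 884 FPKM in the OE_IFI6, OE_control, sh_IFI6 and sh_control groups, but KRT5, SOX2 and EPCAM were listed at 0 in every library, and TP63 and CDH1 averaged under 1 FPKM. Of 10 fibroblast markers, 7 passed the filter, with VIM at 456 to 529 FPKM in the group means and PDGFRA listed at 0. ENG was the 1 endothelial marker of 8 that passed, at 1.24 to 1.67 FPKM in the group means, and 2 of 8 immune markers passed. None of the tested fibroblast, endothelial or immune markers passed the test in overexpression or knockdown. Among the 5 tested epithelial markers DSP rose and KRT17 fell in overexpression, where 4.10% of all genes tested rose and 3.56% fell. In OE_IFI6 against sh_control 0 of the 5 passed the test, and in OE_control against sh_control 1 rose and 1 fell. The part of these markers in the changes of the matrix genes was not tested.

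The stretches just before the transcription starts of ITGA5, ITGA2 and ITGAV are shown because these are the integrin chains that changed, and the gap between COL4A1 and COL4A2 because those genes are read outward from it. The sequences are from RefSeq on GRCh38.p14, are given on the strand of the gene (the plus strand for the gap), and end 1 base before the start of the outermost transcript in the deposited tables; the gap runs between the starts of COL4A1-201 and COL4A2-201. Capitals mark matches on either strand to the GC box GGGCGG and the CCAAT box CCAAT. ITGA5 lies at chr12:54419267-54419516 on the minus strand, ITGA2 at chr5:52989102-52989339 on the plus strand, ITGAV at chr2:186589806-186590055 on the plus strand, and the gap at chr13:110307158-110307235.
ITGA5: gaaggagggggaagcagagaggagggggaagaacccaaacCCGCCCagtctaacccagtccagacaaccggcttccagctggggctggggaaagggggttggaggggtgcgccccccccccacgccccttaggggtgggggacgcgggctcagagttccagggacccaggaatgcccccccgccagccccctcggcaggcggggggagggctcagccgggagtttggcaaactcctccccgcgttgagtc
ITGA2: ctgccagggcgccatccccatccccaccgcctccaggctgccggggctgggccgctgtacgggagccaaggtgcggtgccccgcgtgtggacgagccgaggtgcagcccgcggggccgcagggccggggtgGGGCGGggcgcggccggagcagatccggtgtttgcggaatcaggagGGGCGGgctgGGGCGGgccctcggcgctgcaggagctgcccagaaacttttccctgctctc
ITGAV: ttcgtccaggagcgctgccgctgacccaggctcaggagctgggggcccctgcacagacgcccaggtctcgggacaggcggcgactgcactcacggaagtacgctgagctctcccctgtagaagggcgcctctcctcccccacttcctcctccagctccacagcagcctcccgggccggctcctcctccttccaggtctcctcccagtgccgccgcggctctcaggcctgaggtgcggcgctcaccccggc
COL4A1 to COL4A2: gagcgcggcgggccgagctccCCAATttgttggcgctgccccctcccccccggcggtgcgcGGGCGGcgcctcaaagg
ITGA5 held 1 GC box, ITGA2 held 3, and ITGAV held neither motif. The gap of 78 bases held 1 GC box and 1 CCAAT box. For scale, 42.6% of 35116 promoter windows of 250 bases held the GC box and 32.0% the CCAAT box, and 27.4% and 14.3% of windows of 78 bases. On either strand, none of the 4 stretches held the AP-1 site TGANTCA, the TATA box TATAAA, the heat shock element GAANNTTC or the cyclic AMP element TGACGTCA, which 6.57%, 10.7%, 5.78% and 1.65% of windows of 250 bases held. A match is a description of letters, not of binding.

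In the deposited tables, whose coordinates overlap those of GENCODE 29 on GRCh38, ITGA5 (ENSG00000161638) spans chr12:54395261-54419266 and ITGA2 (ENSG00000164171) chr5:52989340-53094779. ITGAV (ENSG00000138448) spans chr2:186590056-186680901 and COL25A1 (ENSG00000188517) chr4:108808725-109302752. COL4A1 (ENSG00000187498) spans chr13:110148963-110307157 and COL4A6 (ENSG00000197565) chrX:108155607-108439497. Values are over the whole gene with all of its transcripts.

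Of the 82 genes, 39 averaged at least 1 FPKM and were tested. They comprised 9 integrin alpha chains, 4 beta chains, 8 laminin chains and 18 collagen chains. Of the other 43, 34 averaged under 0.1 FPKM, and 9 were listed at 0 in every library (ITGA4, ITGA8, ITGA9, ITGAM, COL6A5, COL9A1, COL22A1, COL23A1 and COL28A1). The laminins summed to a mean of 209.5 FPKM per library, the integrin beta chains to 168.8 FPKM, the integrin alpha chains to 165 FPKM and the collagens to 140 FPKM.

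Among the integrins, ITGB5, which pairs with ITGAV in a vitronectin receptor, had the highest mean over the 12 libraries, at 94.3 FPKM. ITGB1, the common partner of most alpha chains, followed at 64.6 FPKM. On coding transcripts alone ITGB1 had the higher mean over the 12 libraries, at 63.6 FPKM against 58.9 FPKM for ITGB5. In sh_IFI6, however, ITGB1 averaged 38.96 FPKM on them and ITGB5 61.89 FPKM. ITGA5, the fibronectin receptor chain, averaged 51.1 FPKM, and ITGA3, a laminin receptor chain, averaged 37.1 FPKM. ITGAE averaged 23.2 FPKM, of which 0.025% lay on coding transcripts, and its partner ITGB7 averaged 0.0401 FPKM. ITGA2B, the platelet chain, averaged 2.57 FPKM while its partner ITGB3 averaged 0.0077 FPKM. FN1, which encodes fibronectin, averaged 0.0376, 0.0543, 0.0128 and 0.140 FPKM in the OE_IFI6, OE_control, sh_IFI6 and sh_control groups.

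With all transcripts counted, LAMA1 had the highest mean of the laminin chains, at 53.4 FPKM. LAMB3 averaged 47.5 FPKM, LAMA5 32.2 FPKM, LAMC1 30.4 FPKM and LAMB1 22.2 FPKM. For LAMA1, however, 47.8% of the FPKM lay on coding transcripts. On coding transcripts alone LAMB3 had the highest mean over the 12 libraries, at 47.52 FPKM, with LAMC1 at 29.16 FPKM, LAMA1 at 25.54 FPKM and LAMA5 at 13.13 FPKM. In OE_IFI6 alone LAMA1 averaged 40.99 FPKM on coding transcripts and LAMB3 40.66 FPKM. The part of LAMA1 placed on coding transcripts varied within a group: LAMA1-201 was 29.5, 9.32 and 42.9 FPKM in OE_control. Of the epithelial laminin, LAMB3 was 40.9, 35.5 and 45.5 FPKM in OE_IFI6 and 45.2, 55.1 and 56.6 FPKM in OE_control. LAMA3, the alpha chain, was 5.42, 7.27 and 6.65 FPKM in OE_IFI6 and 5.22, 7.86 and 6.82 FPKM in OE_control, with overlap. COL17A1 averaged 0.790 FPKM over the 12 libraries, below the filter, with 0.559, 0.763 and 0.742 FPKM in OE_IFI6 and 0.433, 0.727 and 0.732 FPKM in OE_control. It was 0.788, 1.05 and 1.197 FPKM in sh_IFI6 and 0.578, 1.06 and 0.856 FPKM in sh_control.

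COL12A1, a collagen that sits on the surface of fibrils, had the highest mean of the collagens, at 30.9 FPKM. COL4A2, COL4A5 and COL4A1 followed at 26.0, 19.5 and 15.4 FPKM, and all 6 collagen IV chains passed the filter. Together these 6 summed to 67.6 FPKM, while the 11 fibrillar collagens summed to 20.7 FPKM, of which COL5A1 gave 13.5 FPKM. COL1A1 averaged 2.14 FPKM and COL1A2, the other chain of collagen I, 0.0004 FPKM. The 5 collagen VI chains summed to 0.486 FPKM, and none passed the filter.

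**Figure D1:**
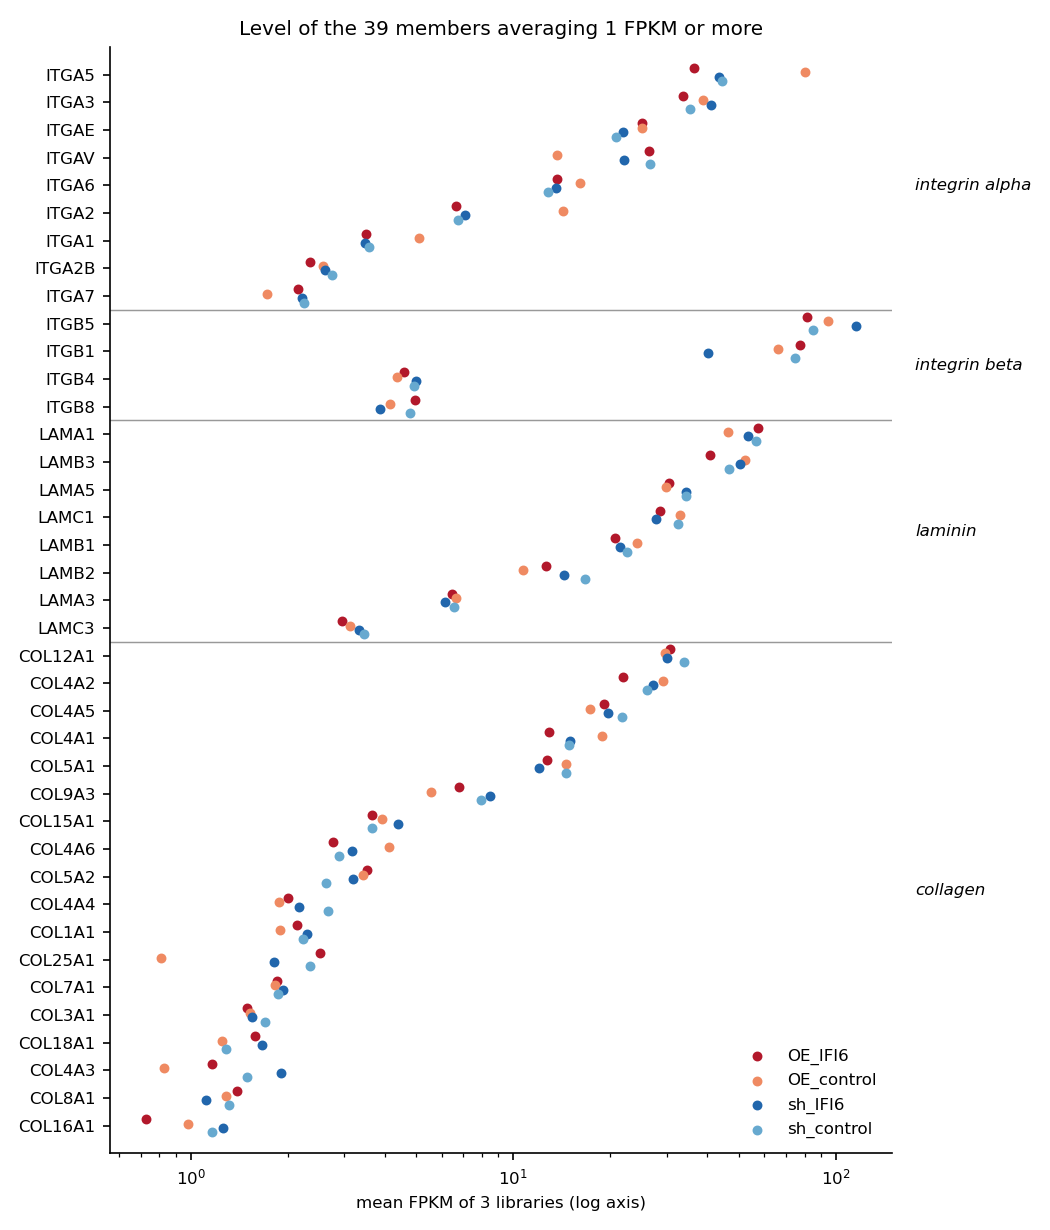
Mean FPKM over 3 libraries (log axis) of each of the 39 tested genes in the 4 groups, 1 row per gene, ordered by level within each family. With all transcripts of a gene counted, ITGB5 has the highest mean in each of the 4 groups. OE_control stands away from the other groups for ITGA5, ITGAV, ITGA2 and COL25A1.

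A gene's value in the deposited tables is the sum of its transcripts, and not all of these encode the chain. The share carried by transcripts in the authors' mRNA transcript table, of which 99.8% are protein-coding in GENCODE 29, had a median of 66.2% over the 39 tested genes. It was at least 90% in 12 genes, among them LAMB3 at 100%, ITGB1 at 98.4% and ITGAV at 96.5%. It was under 50% in 11 genes and under 10% in 4: ITGAE (0.025%), ITGB4 (1.67%), COL25A1 (7.16%) and COL18A1 (7.21%). The coding share summed to at least 1 FPKM in 30 of the 39 genes.

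For ITGB4, 97.9% of the FPKM lay on 1 assembled transcript at chr17:75751476-75765531, and 99.2% of that span lies within GALK1, a galactokinase gene on the other strand that averaged 31.9 FPKM. Its protein-coding transcripts averaged 0.0789 FPKM. ITGB4 as deposited was 4.19, 4.16 and 5.39 FPKM in OE_IFI6, against 5.30, 3.66 and 4.17 FPKM in OE_control, and the groups overlapped. Likewise 92.7% of COL18A1 lay on a transcript within SLC19A1, a folate carrier gene. For ITGA7, 70.5% lay on a transcript that shares 73.0% of its span with BLOC1S1. In LAMA5, 18.8% and 13.4% lay on a pair of transcripts that overlap ADRM1, a proteasome gene averaging 66.6 FPKM. Most of the ITGAE signal lay on short transcripts at the 3′ end of the gene, with ITGAE-207 and ITGAE-202, both classed as processed transcripts, carrying 64.9% and 21.8%. ITGAE itself was 27.2, 23.9 and 24.2 FPKM in OE_IFI6 and 24.7, 24.1 and 26.2 FPKM in OE_control, with overlap. In all, 29 of the 39 tested genes overlap a gene on the opposite strand. No source used here says whether counting used strand, so reads of such pairs may not be separated.

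**Figure D2:**
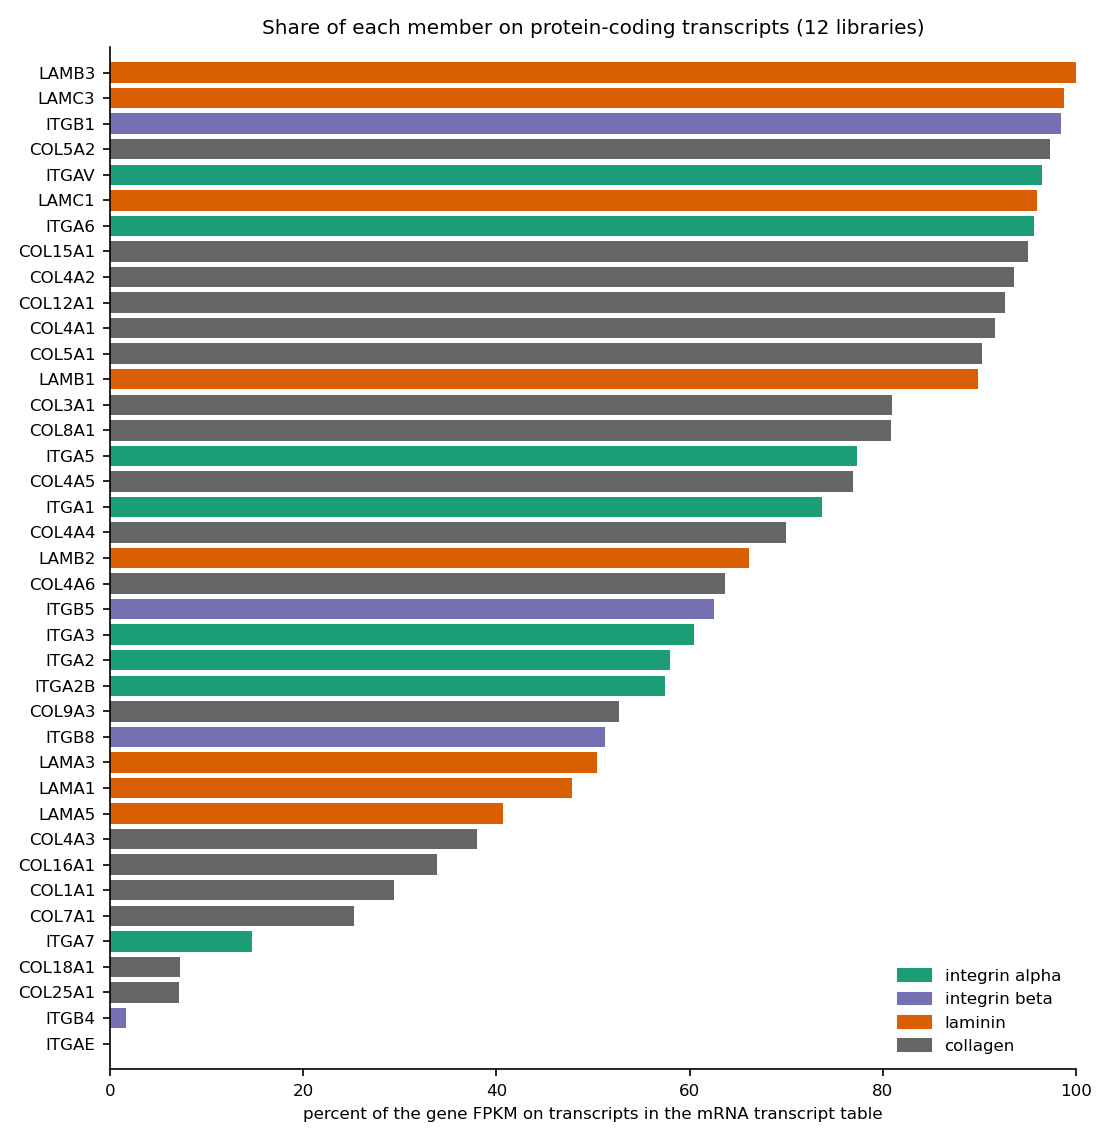
Percent of each tested gene's FPKM, over the 12 libraries, on transcripts of the mRNA transcript table (bars, coloured by family). ITGAE, ITGB4, COL25A1 and COL18A1 lie under 10% and LAMB3 reaches 100%.

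Overexpression of IFI6 was read from OE_IFI6 against OE_control. ITGA5, ITGA2, COL4A1 and COL4A6 fell and ITGAV and COL25A1 rose, while 0 of 8 laminin chains and 0 of 4 beta chains passed the test. These 2 rises and 4 falls among 39 genes stand beside 7.66% of the 10925 genes tested that passed in either direction, 4.10% upward and 3.56% downward. Over all genes 448 rose and 389 fell, but with median-of-ratios scaling 427 rose and 517 fell, and with quantile normalization 371 rose and 475 fell; the counts among the 39 were 2 and 4 with either. The median log2 difference of the 39 was -0.0004, against 0.0465 over all genes tested. The libraries of the groups did not overlap for 13 of the 39, and for 23.3% of all genes tested.

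ITGA5 was 39.8, 31.1 and 38.1 FPKM in OE_IFI6, against 72.2, 85.1 and 83.9 FPKM in OE_control. Every OE_IFI6 library lay below every OE_control library, and the sh_IFI6 and sh_control libraries, at 42.4 to 46.4 FPKM, lay near OE_IFI6. ITGA5 fell by 1.13 on the log2 scale (SE 0.11, limma adjusted p = 0.000158). In these bulk libraries, fewer cells that carry a transcript and less of it per cell cannot be told apart.

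ITGA2, the chain that binds collagen with ITGB1, was 6.36, 7.96 and 5.60 FPKM in OE_IFI6, against 12.2, 16.9 and 13.7 FPKM in OE_control. The groups did not overlap, and ITGA2 fell by 1.0 (SE 0.16, limma adjusted p = 0.0034). ITGA1, the other collagen-binding chain tested, had 3.37, 4.56 and 2.58 FPKM in OE_IFI6 and 4.28, 6.57 and 4.44 FPKM in OE_control, with overlap; its difference of -0.44 (SE 0.18) had a limma adjusted p of 0.17. Over the 4 collagen-binding alpha chains the sum was 10.2 ± 2.21 FPKM in OE_IFI6 and 19.4 ± 3.68 FPKM in OE_control, with 10.4 ± 0.662 FPKM in sh_control (SD, n = 3 each).

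ITGAV pairs with several beta chains to bind vitronectin and latent TGF-beta. It was 23.4, 32.3 and 23.2 FPKM in OE_IFI6, against 11.7, 17.7 and 11.5 FPKM in OE_control. Here the OE_IFI6 libraries were all higher. ITGAV rose by 0.91 (SE 0.19, limma adjusted p = 0.013), a call lost with only the groups compared (0.079) and without OE_control replicate 3 (0.052). The ratio of ITGA5 to ITGAV was thus 1.70, 0.963 and 1.65 in OE_IFI6 and 6.16, 4.80 and 7.32 in OE_control, with sh_IFI6 at 1.64 to 2.42 and sh_control at 1.61 to 1.73. The sum over the 4 alpha chains that read the RGD motif in their ligands was 65.0 ± 0.858 FPKM in OE_IFI6 and 96.6 ± 9.55 FPKM in OE_control, with 73.7 ± 3.74 FPKM in sh_control (SD, n = 3 each).

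The laminin receptor chains did not pass the test. ITGA3 was 33.2, 29.5 and 38.0 FPKM in OE_IFI6 and 32.2, 38.2 and 45.4 FPKM in OE_control, a difference of -0.19 (SE 0.16, limma adjusted p = 0.52). ITGA6 was 12.4, 16.4 and 12.1 FPKM in OE_IFI6 and 13.8, 19.2 and 15.3 FPKM in OE_control, a difference of -0.22 (SE 0.25, limma adjusted p = 0.65). The groups overlapped for ITGA3 and ITGA6. ITGA7, the other such chain tested, averaged 2.16 FPKM in OE_IFI6 and 1.73 FPKM in OE_control, without overlap. Its difference was 0.22 (SE 0.11, limma adjusted p = 0.26), and 14.7% of its FPKM lay on coding transcripts. Of the beta chains, ITGB5 was 76.9, 80.3 and 87.7 FPKM in OE_IFI6, against 89.3, 97.5 and 97.7 FPKM in OE_control. Its groups did not overlap, and its difference was -0.21 (SE 0.09, limma adjusted p = 0.18).

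**Figure D3:**
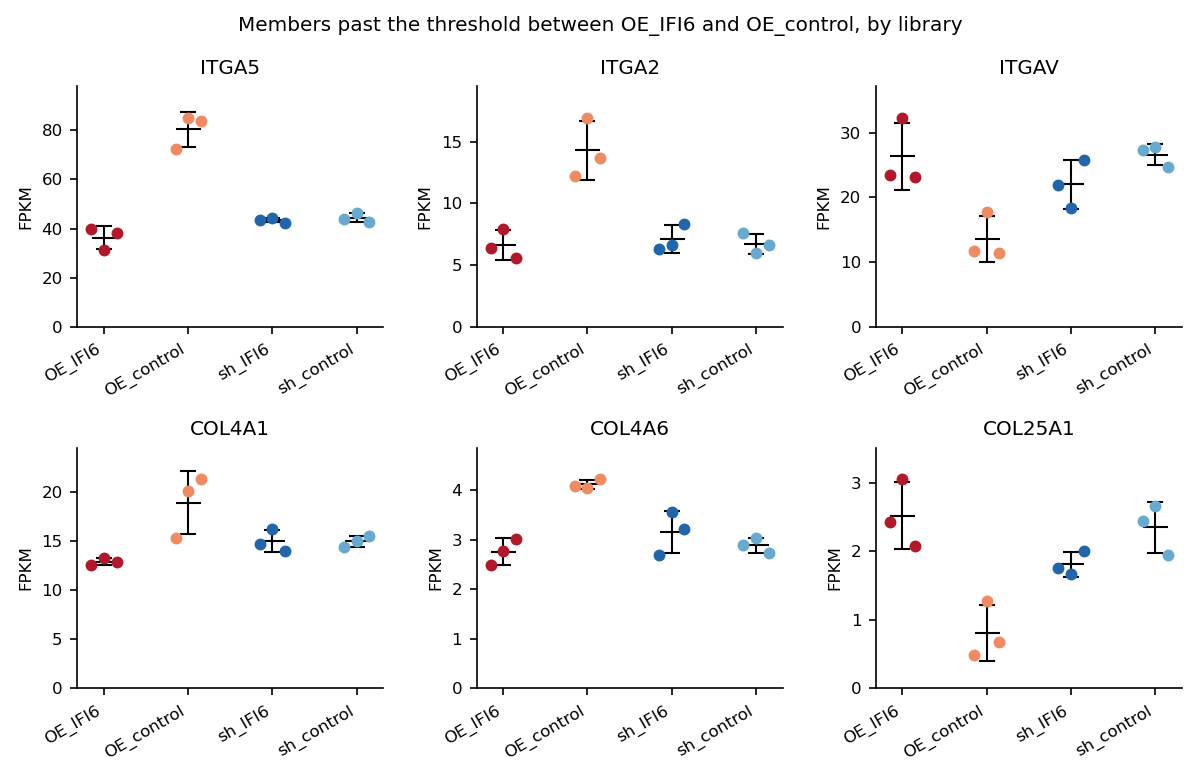
FPKM of the 6 genes past the threshold in OE_IFI6 against OE_control, in each library of the 4 groups (points), with the mean and SD of 3 libraries (bars). In each panel the OE_control points lie apart from the OE_IFI6 points, and the sh_IFI6 and sh_control means lie nearer to that of OE_IFI6.

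Among the basement membrane collagens, COL4A1 was 12.5, 13.3 and 12.8 FPKM in OE_IFI6, against 15.2, 20.1 and 21.3 FPKM in OE_control. The groups did not overlap, and COL4A1 fell by 0.51 (SE 0.12, limma adjusted p = 0.031). The call was lost with only the groups compared (0.18), without any 1 of the OE_IFI6 libraries (0.083, 0.064 and 0.056) and without OE_control replicate 2 (0.079) or 3 (0.11). COL4A2 is read from the other side of the printed gap and joins COL4A1 in the common collagen IV trimer. It was 19.6, 21.0 and 24.9 FPKM in OE_IFI6, against 25.3, 31.2 and 30.9 FPKM in OE_control. Its groups did not overlap either, but its difference of -0.40 (SE 0.15) had a limma adjusted p of 0.13. The ratio of COL4A1 to COL4A2 was 0.595 ± 0.0687 in OE_IFI6 and 0.644 ± 0.0433 in OE_control (SD, n = 3 each).

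In the X-linked pair, COL4A6 was 2.48, 2.78 and 3.02 FPKM in OE_IFI6, against 4.09, 4.04 and 4.23 FPKM in OE_control, and it fell by 0.45 (SE 0.11, limma adjusted p = 0.031), a call lost in 8 of 22 alternatives, among them each OE_control library left out (0.064, 0.057 and 0.087). COL4A5 was 19.4, 18.8 and 19.2 FPKM in OE_IFI6 and 15.3, 19.1 and 17.6 FPKM in OE_control, a difference of 0.14 (SE 0.13, limma adjusted p = 0.59) with overlap. The ratio of COL4A5 to COL4A6 was 6.36 to 7.81 in OE_IFI6 and 3.74 to 4.74 in OE_control, with 6.71 to 8.46 in sh_control. In the RefSeq promoter table the starts of COL4A1 and COL4A2 lie 127 bases apart, those of COL4A5 and COL4A6 380 bases apart (the nearer of 2 COL4A6 starts), and those of COL4A3 and COL4A4 419 bases apart.

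COL25A1, a transmembrane collagen known from neurons, was 2.43, 3.06 and 2.08 FPKM in OE_IFI6, against 0.485, 1.27 and 0.684 FPKM in OE_control. The OE_IFI6 libraries were all higher, and COL25A1 rose by 0.97 (SE 0.17, limma adjusted p = 0.0049), a call lost with only the groups compared (0.052). However, 89.1% of its FPKM lay on 1 assembled transcript at its 3′ end, chr4:108808725-108820475, and its coding transcripts averaged 0.134 FPKM.

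LAMA1 was 61.3, 55.1 and 56.0 FPKM in OE_IFI6, against 38.0, 50.1 and 50.4 FPKM in OE_control. Its groups did not overlap, and the difference of 0.32 (SE 0.12) had a limma adjusted p of 0.12. LAMB3, with the values given above, differed by -0.36 (SE 0.12, limma adjusted p = 0.10), and its groups overlapped. LAMA5 was 31.0, 28.6 and 31.8 FPKM in OE_IFI6 and 31.3, 27.1 and 31.0 FPKM in OE_control, a difference of 0.03 (SE 0.09, limma adjusted p = 0.88) with overlap. COL12A1 was 34.7, 31.7 and 25.3 FPKM in OE_IFI6 and 26.2, 33.3 and 29.02 FPKM in OE_control, a difference of 0.04 (SE 0.13, limma adjusted p = 0.89), also with overlap. The other tested genes differed by between -0.21 for LAMC1 and 0.26 for COL9A3, and none passed the test.

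**Figure D4:**
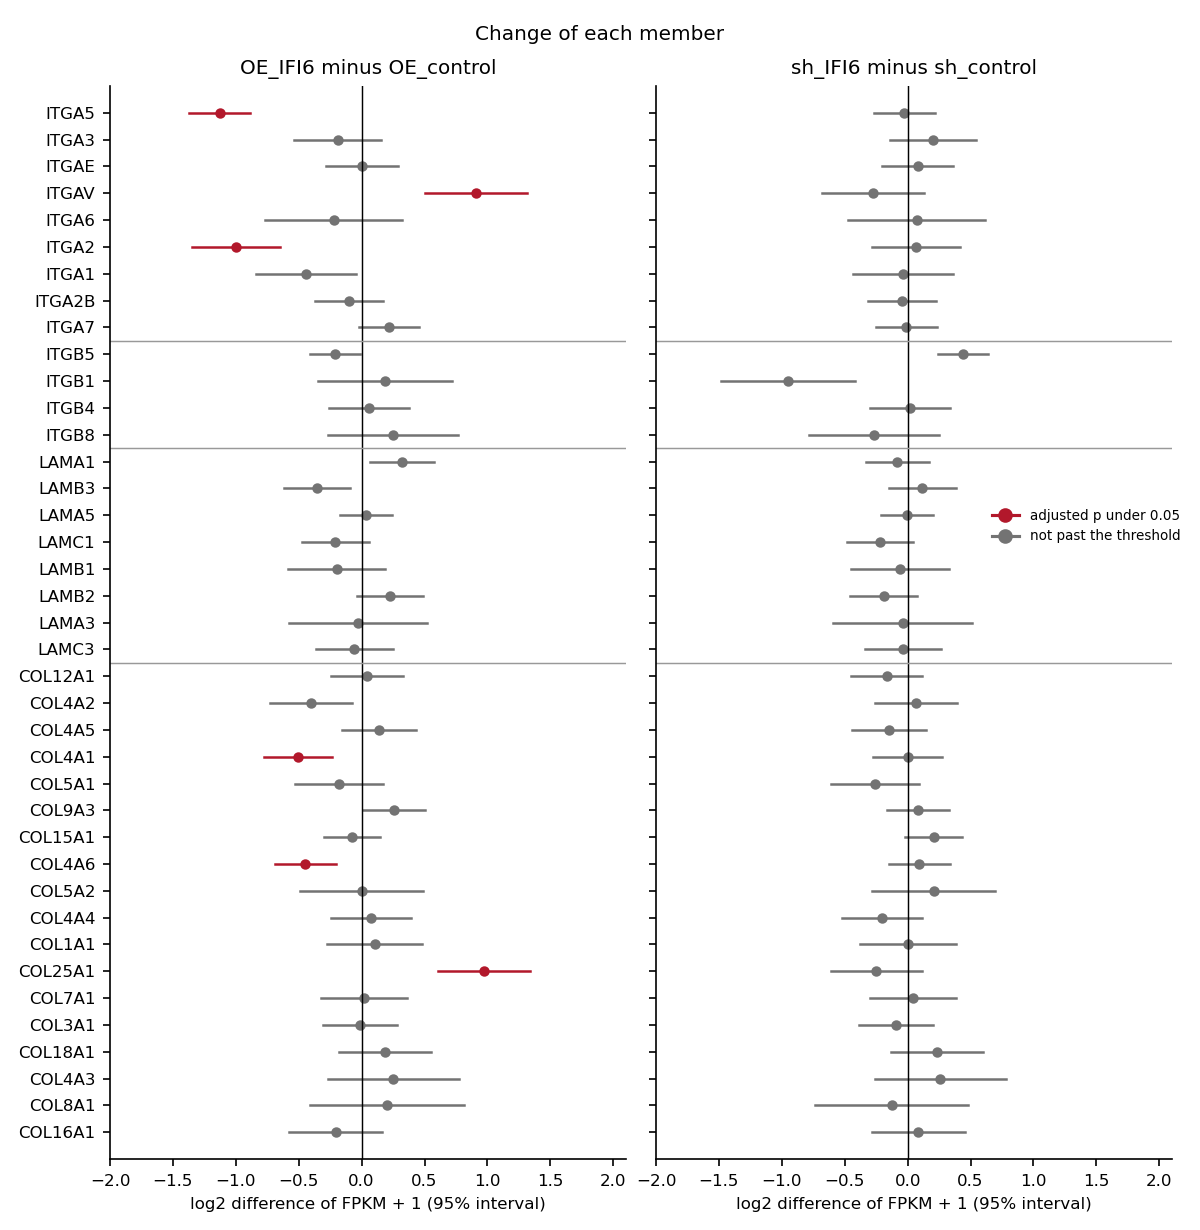
Log2 difference of FPKM + 1 for each tested gene (points) with its 95% interval from limma (lines), for OE_IFI6 minus OE_control (left) and sh_IFI6 minus sh_control (right). The 6 genes in red pass an adjusted p of 0.05 at left; at right none does, and ITGB5 and ITGB1 lie farthest from 0.

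With only the transcripts of the mRNA transcript table summed per gene, a setting added after the data were seen, 3 of the 6 calls were made. Of the 39 genes, 30 passed the filter on these sums. Over all 10006 genes tested on them, 401 rose and 326 fell. ITGA5 fell by 1.12 (SE 0.11, limma adjusted p = 0.00051), COL4A1 fell by 0.50 (SE 0.13, limma adjusted p = 0.038) and ITGAV rose by 0.94 (SE 0.18, limma adjusted p = 0.014). For ITGA5 the single coding transcript ITGA5-201 was 32.7, 24.4 and 28.1 FPKM in OE_IFI6, against 56.7, 65.2 and 65.5 FPKM in OE_control. COL4A1-201 was 11.2, 11.3 and 11.6 FPKM in OE_IFI6, against 13.4, 18.3 and 19.0 FPKM in OE_control. Both kept the groups apart.

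The other 3 calls were not made on the coding sums. The coding transcript ITGA2-201 was 6.30, 2.24 and 3.75 FPKM in OE_IFI6 and 4.02, 8.11 and 12.6 FPKM in OE_control, with overlap, a difference of -0.82 (SE 0.49, limma adjusted p = 0.37). The rest of ITGA2 lay mainly on transcripts classed as nonsense-mediated decay, of which ITGA2-205 alone carried 19.9%. COL4A6 differed by -0.24 on its coding sum (SE 0.13, limma adjusted p = 0.32), and 24.7% of its FPKM was the retained-intron transcript COL4A6-205, at 0.555, 0.516 and 0.384 FPKM in OE_IFI6, against 1.29, 1.52 and 1.35 FPKM in OE_control. COL25A1 was below the filter.

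Against sh_control, OE_IFI6 showed 0 of 39 genes past the threshold in limma, where 0.0183% of all genes tested passed. At an unadjusted p under 0.05 there were 2 of the 39, beside 503 of the 10925 genes tested. They were LAMB2 at -0.36 (limma adjusted p = 0.9956) and ITGA5 at -0.29 (limma adjusted p = 0.9995). The groups did not overlap for 6 of the 39 and for 9.54% of all genes tested. ITGA5 was 39.8, 31.1 and 38.1 FPKM in OE_IFI6, against 43.9, 46.4 and 42.8 FPKM in sh_control, so that the groups stayed apart but by less. The differences of the others were -0.02 for ITGA2, -0.03 for ITGAV, -0.20 for COL4A1, -0.05 for COL4A6 and 0.07 for COL25A1, each with a limma adjusted p of 0.9995. The 95% interval ran from -0.44 to 0.37 for ITGAV and from -0.53 to -0.04 for ITGA5. The comparisons with sh_control and with OE_control share the OE_IFI6 libraries, so their values are not independent.

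The control vectors were set against each other in turn. In OE_control against sh_control, ITGA5 rose by 0.84 (SE 0.11, limma adjusted p = 0.0012) and ITGA2 by 0.98 (SE 0.16, limma adjusted p = 0.0046). ITGAV fell by 0.94, COL25A1 by 0.90, LAMB2 by 0.59 and COL9A3 by 0.45. The COL9A3 call was lost in 9 of 23 alternatives (adjusted p up to 0.13) and the LAMB2 call in 4 (up to 0.063), the ITGAV call was lost without sh_control replicate 2 (0.052), and on coding sums ITGA2 had a limma adjusted p of 0.34. These 2 rises and 4 falls stand beside 7.52% of all genes tested, 2.75% upward and 4.78% downward. Over all genes 300 rose and 522 fell, but with median-of-ratios scaling 480 rose and 358 fell, and with quantile normalization 378 rose and 330 fell. With either scaling 3 of the 39 rose and 3 fell. LAMB2, a beta chain of synaptic and kidney laminins, was 9.57, 11.3 and 11.2 FPKM in OE_control, against 14.5, 16.4 and 19.1 FPKM in sh_control. COL9A3, a chain of cartilage collagen IX, was 5.44, 5.01 and 6.18 FPKM in OE_control, against 7.34, 8.66 and 7.84 FPKM in sh_control. The groups did not overlap for 16 of the 39 genes and for 30.4% of all genes tested. This comparison and the overexpression comparison share the OE_control libraries, so their values are not independent, and the vector and the state of these 3 libraries cannot be told apart.

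Knockdown of IFI6 was read from sh_IFI6 against sh_control. None of the 39 genes passed the test in limma, and none of the 10925 genes, which include IFI6 itself, did (0%). IFI6 was 15.1, 13.9 and 14.7 FPKM in sh_IFI6, against 24.9, 24.1 and 21.2 FPKM in sh_control. At an unadjusted p under 0.05 there were 2 of the 39 and 563 genes in all. The groups did not overlap for 7 of the 39 and for 19.1% of all genes tested. The median log2 difference was -0.01 over the 39 and 0.00 over all genes. The genes that changed with overexpression had differences of -0.03 for ITGA5 (95% interval -0.27 to 0.22), 0.06 for ITGA2 (-0.29 to 0.41), -0.27 for ITGAV (-0.68 to 0.13), 0.00 for COL4A1 (-0.27 to 0.27), 0.09 for COL4A6 (-0.15 to 0.33) and -0.25 for COL25A1 (-0.61 to 0.11).

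The 2 genes with an unadjusted p under 0.05 were both beta chains. ITGB5 was 112.8, 122.0 and 112.1 FPKM in sh_IFI6, against 85.0, 82.0 and 88.1 FPKM in sh_control. The groups did not overlap, and the difference of 0.44 (SE 0.09) had a limma adjusted p of 0.69. The retained-intron transcript ITGB5-202 was 47.8, 56.5 and 55.4 FPKM in sh_IFI6, against 26.7, 18.8 and 18.3 FPKM in sh_control. The main coding transcript ITGB5-201 was 30.8, 38.99 and 33.3 FPKM in sh_IFI6 and 30.7, 38.8 and 38.7 FPKM in sh_control, with overlap. On the coding sum ITGB5 differed by 0.01 (SE 0.16, limma adjusted p = 0.99).

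ITGB1 was 58.3, 31.3 and 30.5 FPKM in sh_IFI6, against 79.9, 73.4 and 71.4 FPKM in sh_control. All sh_IFI6 libraries were lower, and the first of them lay far above its replicates. The difference was -0.95 (SE 0.24, limma adjusted p = 0.82), and on the coding sum -0.97 (SE 0.26, limma adjusted p = 0.82). Most of ITGB1 in each library was placed on 1 of 2 coding transcripts, and which one differed within every group but sh_control. ITGB1-201 held the larger part in replicate 3 of OE_IFI6, replicate 2 of OE_control and replicates 1 and 3 of sh_IFI6, and ITGB1-202 in the other 8 libraries; in replicate 2 of sh_IFI6 it held 24.8 of 31.3 FPKM and ITGB1-201 held 0.163 FPKM. In OE_IFI6 the library on ITGB1-201 had the lowest level, 53.7 FPKM, against 94.8 and 83.6 FPKM in the other 2. In OE_control the library on ITGB1-201 had the highest, 73.1 FPKM, against 62.0 and 63.7 FPKM.

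**Figure D5:**
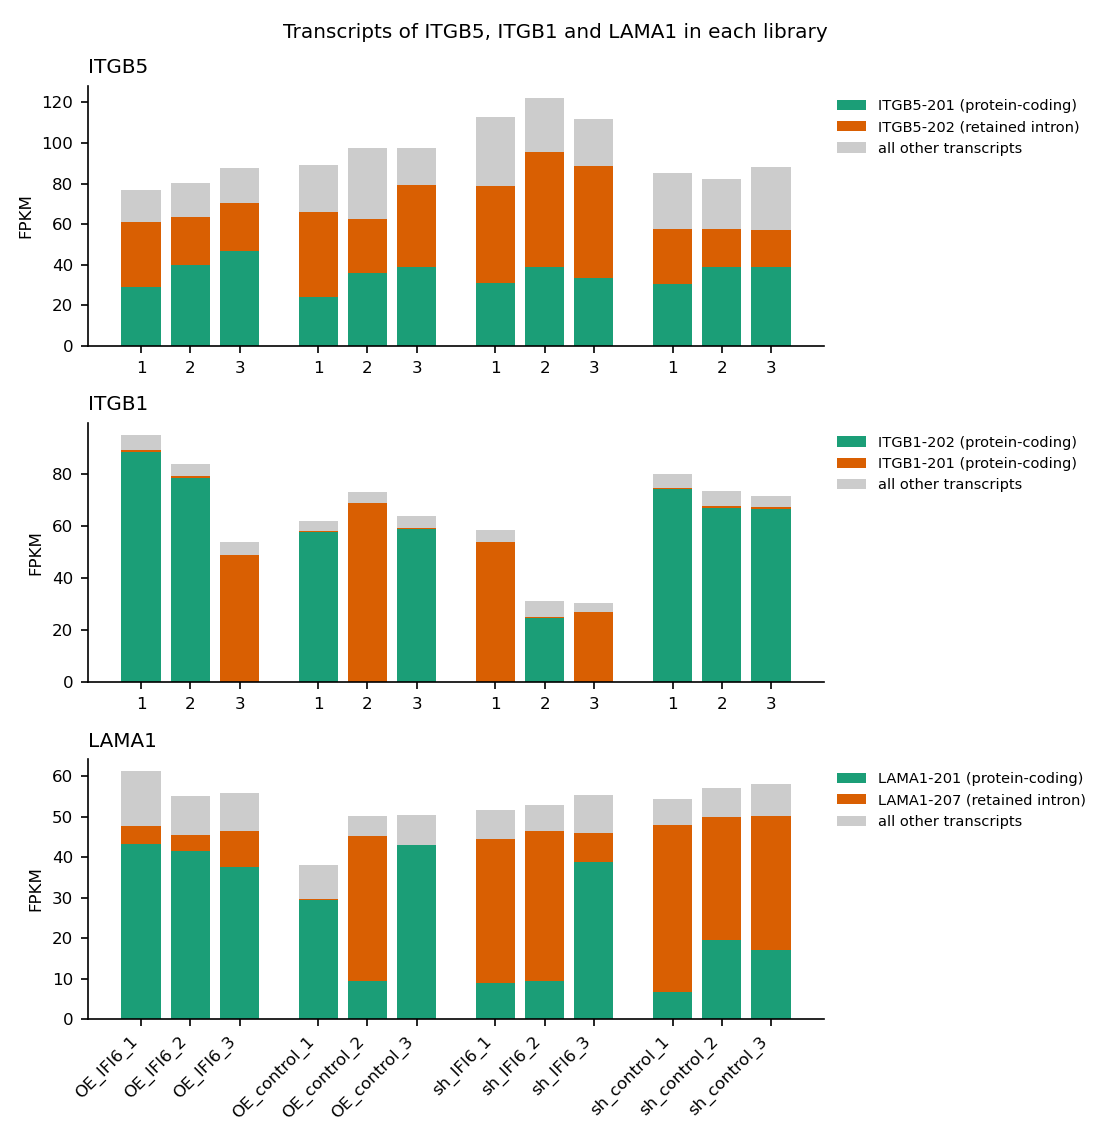
FPKM of ITGB5, ITGB1 and LAMA1 in each of the 12 libraries (bars), split into their 2 main transcripts and all others. ITGB5-202 is taller in sh_IFI6 than in sh_control, and ITGB1 sits mostly on 1 coding transcript per library. LAMA1 shifts between a coding and a retained-intron transcript within OE_control and within sh_IFI6. It lies more on the coding one in OE_IFI6 and more on the retained-intron one in sh_control.

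LAMA1 showed the same kind of split. Its coding transcript LAMA1-201 was 43.2, 41.7 and 37.6 FPKM in OE_IFI6 and 29.5, 9.32 and 42.9 FPKM in OE_control, while the retained-intron transcript LAMA1-207 was 4.45, 3.89 and 8.75 FPKM in OE_IFI6 and 0.0286, 35.9 and 0.0312 FPKM in OE_control. LAMA1-201 was 9.0, 9.3 and 38.8 FPKM in sh_IFI6 and 6.7, 19.4 and 17.0 FPKM in sh_control. LAMA1-207 was 35.6, 37.1 and 7.18 FPKM in sh_IFI6 and 41.3, 30.7 and 33.3 FPKM in sh_control. LAMA1-201 was thus the larger in every OE_IFI6 library and LAMA1-207 in every sh_control library. Over the 12 libraries the summed gene varied far less than either transcript. On the coding sum LAMA1 differed by 0.79 between OE_IFI6 and OE_control (SE 0.62, limma adjusted p = 0.52). Between OE_IFI6 and sh_control it differed by 1.55 (SE 0.62), which did not pass the test. ITGAV was divided in this way too, between the coding transcripts ITGAV-201 and ITGAV-202, which carried 59.4% and 36.5% of its FPKM.

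The effects of overexpression and knockdown were compared directly as the difference of the log2 differences. ITGA5 (-1.10, SE 0.16, limma adjusted p = 0.0038), ITGA2 (-1.06, SE 0.23, limma adjusted p = 0.032) and ITGB5 (-0.65, SE 0.13, limma adjusted p = 0.022) were lower under overexpression than under knockdown, each relative to its own control. COL25A1 (1.22, SE 0.23, limma adjusted p = 0.019) and ITGAV (1.18, SE 0.26, limma adjusted p = 0.036) were higher. These 2 upward and 3 downward calls stand beside 2.69% of all genes tested, 1.18% upward and 1.51% downward. COL4A1 (-0.50, limma adjusted p = 0.15), COL4A6 (-0.54, limma adjusted p = 0.099) and ITGB1 (1.13, limma adjusted p = 0.11) did not pass. On coding sums the calls of ITGA5 (-1.05, limma adjusted p = 0.011) and ITGAV (1.22, limma adjusted p = 0.041) were made, while ITGA2 (-0.76, limma adjusted p = 0.62) and ITGB5 (-0.08, limma adjusted p = 0.90) did not pass and COL25A1 was below the filter. Of the 23 alternatives, ITGAV missed the threshold in 12, ITGA2 in 10 and ITGB5 in 8, and COL25A1 missed it in 4 of 21. With the replicate block ITGAV had an adjusted p of 0.051 and ITGA2 of 0.054.

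Genes that make, bind or cut the matrix were taken from 5 further lists, and the background for their counts is the 4.10% upward and 3.56% downward given above. Of 27 tested genes for collagen synthesis and crosslinking, 4 fell in overexpression and 0 rose, with a median of -0.26. SERPINH1, the chaperone that collagen needs to fold, was 42.7, 40.4 and 57.6 FPKM in OE_IFI6, against 112.4, 99.99 and 122.2 FPKM in OE_control, and 49.1 to 57.3 FPKM in sh_control. It fell by 1.24 (SE 0.13, limma adjusted p = 0.00029). COLGALT1, which adds sugars to collagen, fell by 0.51, the crosslinking enzyme LOXL2 by 0.48 and the prolyl hydroxylase P3H1 by 0.43.

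Of 35 tested integrin adaptors and focal adhesion proteins, 1 fell and 0 rose, with a median of 0.02. That gene was VCL, the actin-linking adaptor vinculin, at 28.9, 31.3 and 31.5 FPKM in OE_IFI6, against 40.8, 45.1 and 46.9 FPKM in OE_control. Of 17 tested matrix proteases and inhibitors, 3 fell and 0 rose, with a median of -0.34. Among them CTSL, a lysosomal protease, fell by 0.68 and MMP15, a membrane-bound matrix metalloproteinase, by 0.56.

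Of 18 tested other matrix proteins and ligands, 1 rose and 2 fell, with a median of -0.12. CCN2, a matricellular protein that integrins bind, was 5.91, 6.61 and 8.90 FPKM in OE_IFI6, against 1.47, 2.33 and 1.43 FPKM in OE_control, and rose by 1.57. EFEMP1 and MFGE8 each fell by 0.44. Of 19 tested other matrix receptors 2 fell, the heparan sulphate proteoglycans GPC1 by 0.77 and SDC1 by 0.61, with a median of -0.09. In knockdown, and in OE_IFI6 against sh_control, 0 genes of these 5 lists passed the test in limma. Against sh_control the differences were -0.18 for SERPINH1, 0.02 for COLGALT1, -0.36 for LOXL2, -0.21 for P3H1, -0.26 for VCL and 0.00 for CTSL. They were -0.08 for MMP15, -0.08 for CCN2, -0.11 for EFEMP1, 0.01 for MFGE8, -0.17 for GPC1 and -0.03 for SDC1.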

How the data were processed

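RNA of 12 libraries was analysed, 3 in each of 4 groups set by the sample titles. The deposited values are FPKM per gene and per transcript, computed by the authors; the tools listed per the submitters' processing notes, without versions, are HISAT2, StringTie, Cuffdiff and edgeR. No source used here states the build, the annotation or strand use; deposited coordinates of all 82 members overlapped those in GENCODE 29, and 46.3% had the same bounds. Total reads per library are not given. Low values lay on steps whose spacing differed by up to 1.29 times between libraries, but only 22.9% to 27.6% were within 1% of a whole step, so no count test was run and values near 1 FPKM are the least certain.

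Limma 3.58.1 (R 4.3.3) fitted 1 model of 4 group means (8 residual degrees of freedom, trended prior) to log2(FPKM + 1) of the 10925 genes averaging 1 FPKM or more, and p-values, all two-sided, were adjusted over these genes. The scale understates changes of low genes. Members, lists and tests were chosen with earlier results of these data known. Values per library are given, in the groups compared, for every member past the threshold, for ITGA5, ITGB1, ITGB4, ITGA6, LAMA3, LAMB3 and COL17A1 whatever their values, and for the 3 highest of each family. ITGA1, ITGA7, LAMB2, COL9A3 and the neighbouring genes were named after their values were seen. Some items that this rule or these lists cover are not reported here. Transcript classes came from GENCODE 29; promoter sequences were in the RefSeq table for 58 of the 82. On simulated data (10925 genes, 200 changed) the overexpression contrast recovered 75% of changes of log2 1 and 25% of log2 0.58. The simulation moved only OE_IFI6, with noise drawn separately for each gene. In the data 837 genes passed in overexpression and OE_control stood apart. Recovery in these data, or in knockdown, was therefore not measured. Alternatives were another pseudocount, filters, scalings, priors, fewer libraries, a replicate block, other tables, and leaving out each library.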

Additional observations from a re-analysis of the deposited data

Results flagged for a closer look

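For 5 genes the effect of IFI6 overexpression differed from that of its knockdown by a limma test of the difference itself, with adjusted p-values over 10925 genes. The log2 difference between the effects was -1.10 for ITGA5 (adjusted p = 0.0038), 1.22 for COL25A1 (adjusted p = 0.019), -0.65 for ITGB5 (adjusted p = 0.022), -1.06 for ITGA2 (adjusted p = 0.032) and 1.18 for ITGAV (adjusted p = 0.036). For ITGA5, ITGA2, ITGAV and COL25A1 each OE_control library lay outside the range of the remaining 9, and against sh_control OE_IFI6 differed by -0.29, -0.02, -0.03 and 0.07. For ITGB5, whose retained-intron transcript ITGB5-202 was higher in each sh_IFI6 library than in each sh_control library, the coding sum differed by -0.08 (adjusted p = 0.90). On coding sums ITGA2 did not pass either (-0.76, adjusted p = 0.62) and COL25A1 was below the filter, and with the replicate block ITGA2 and ITGAV had adjusted p-values of 0.054 and 0.051. No cause was tested.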

How the results depend on the processing

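The counts of 2 rises and 4 falls in overexpression were 1 and 3 with a minimum mean of 5 FPKM, which removes COL25A1 and COL4A6 from the test, 0 and 2 with only the groups compared, and 1 and 2 with the mRNA transcript sums. Leaving out 1 library gave 1 to 3 rises and 2 to 4 falls. In the difference of effects, 2 rises were 1 without the filter, with a minimum mean of 5 FPKM and with the mRNA transcript sums, where 3 falls were 1, and leaving out 1 library gave 0 to 3 rises and 1 to 4 falls. For the control vectors, 2 rises were 1 with the mRNA transcript sums, and 4 falls were 2 with those sums and with only the groups compared; leaving out 1 library gave 2 to 3 rises and 1 to 4 falls. Knockdown and OE_IFI6 against sh_control gave 0 of the 39 under every alternative run. Over all genes, only the groups compared gave 74 rises and 93 falls in overexpression, against 448 and 389. A minimum mean of 5 FPKM gave 358 rises and 350 falls among 7704 genes. The mRNA transcript sums gave 401 and 326 among 10006 genes. On those sums the difference of effects gave 101 rises and 120 falls, and the control vectors 240 and 410. The cause of these shifts was not tested.

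ITGA5 passed in overexpression under all 23 alternatives, at -1.20 to -1.02 (adjusted p 0.00014 to 0.013). ITGA2 missed the threshold with the mRNA transcript sums. ITGAV missed it with only the groups compared (adjusted p = 0.079) and without OE_control replicate 3 (0.052), with values of 0.76 to 1.10 over the alternatives. COL25A1 missed it with only the groups compared (0.052). COL4A1 missed it in 6 of 23 alternatives, namely only the groups compared (0.18) and without replicate 1, 2 or 3 of OE_IFI6 (0.083, 0.064, 0.056) or replicate 2 or 3 of OE_control (0.079, 0.11). COL4A6 missed it in 8 of 22 (adjusted p up to 0.32), among them each library of OE_control left out. In the difference of effects, ITGA5 passed in all 23, while ITGAV missed the threshold in 12, ITGA2 in 10, ITGB5 in 8 and COL25A1 in 4 of 21.

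Groups share replicate numbers, but the correlation of same-numbered libraries ran from -0.146 to 0.254 and passed 0.1 in 6 of 18 pairs, so the numbers were not taken as pairing the libraries. As a hint from the data, of 12 libraries, 8 correlated best with their own number, each having 3 numbers to match. Same-numbered libraries of OE_IFI6 and OE_control correlated at 0.087, 0.254 and 0.124. Those of sh_IFI6 and sh_control correlated at -0.043, -0.01 and -0.034. Whether the numbers mark pairs was not tested. With the replicate block, the rises in the difference of effects were 1 rather than 2, since ITGAV had an adjusted p of 0.051, and ITGA2 had 0.054.

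Signs turned only for values that passed no test. In overexpression, with a library left out, ITGB4 ran from -0.043 to 0.178, LAMA3 from -0.170 to 0.085, COL12A1 from -0.052 to 0.169, ITGAE from -0.053 to 0.038 and LAMA5 from -0.033 to 0.076. Quantile normalization gave ITGB4 -0.021, median-of-ratios scaling gave ITGAE -0.034 and LAMA5 -0.006, and the mRNA transcript sums gave LAMA3 0.188. In knockdown, with a library left out, COL4A1 ran from -0.055 to 0.045, ITGA2 from -0.045 to 0.142 and ITGA5 from -0.076 to 0.004. COL4A1 was 0.002 by quantile normalization and 0.018 on the mRNA transcript sums, which gave ITGA2 -0.058.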
